A study of Mus musculus with 4 samples.

Results

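The 10 genes described here encode the nuclear-made proteins that copy and transcribe mitochondrial DNA, and 3 closely tied partners (Tfb1m, Lrpprc and Nrf1): Tfam, Tfb1m, Tfb2m, Polrmt, Polg, Polg2, Ssbp1, Lrpprc, Nrf1 and Tefm. They were chosen by name from a table of 50600 gene rows, each name matched 1 row, and all 10 passed the filter on low values (a mean of at least 1 over the libraries). The tested cells were OG2ES, a mouse embryonic stem cell line, with the genotype Myh9 KO (2 libraries), set against WT cells of the same line (2 libraries). Both groups were grown in mES medium with 2i, the inhibitor pair that keeps mouse embryonic stem cells in the naive state, and received no further treatment. The labels do not say how many clones the Myh9 KO cells came from, nor that the replicates were separate cultures. What is particular to the KO line and what follows the loss of Myh9 therefore cannot be told apart. The p-values rest on the spread among these 4 libraries, part or all of which may be technical.

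Mitochondrial DNA is a small circular genome that codes for a few core subunits of the respiratory chain and for the RNAs of the mitochondrial ribosome. Everything that copies, packages and transcribes it is encoded in the nucleus and imported. POLRMT is the mitochondrial RNA polymerase, TFAM bends promoter DNA and coats the genome into nucleoids, TFB2M opens the promoter and TEFM keeps the polymerase moving. POLG and POLG2 are the catalytic and accessory subunits of the replicating DNA polymerase, and SSBP1 covers the single strands at the fork. TFB1M methylates the RNA of the small mitochondrial ribosomal subunit, LRPPRC stabilises mitochondrial mRNAs, and NRF1 is a nuclear transcription factor known for binding promoters of respiratory genes, among them those of TFAM and the TFB genes in human cells. NRF1 is not the product of Nfe2l1, which goes by the same short name.

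The deposited values are whole numbers that summed to between 992098 and 992317 per library, as per-million values do once decimals are dropped, so they are not read counts and the depth is unknown. Whether they were divided by gene length is not stated, so levels of different genes are not compared. Sums over lists are compared between libraries only, and they weigh each gene by its own level. Myh9, the targeted gene, had values of 9 and 9 in Myh9 KO and 83 and 100 in WT, as the labels have it (limma adjusted p = 0.00675, log2 fold change -3.20, SE 0.12). The 10 embryonic stem cell markers checked summed to between 8532 and 8697 in Myh9 KO and between 9952 and 10191 in WT, and each had a value above 0. Of 10 feeder fibroblast markers 7 were listed at 0 in every library, and the list summed to 5 to 7 in Myh9 KO and 4 to 6 in WT. Primitive endoderm markers summed to 8 in each Myh9 KO library and to 2 and 4 in WT, with Gata6, Sox7, Pdgfra and Foxa2 at 0 throughout. Trophoblast markers summed to 18 in each Myh9 KO library and 12 in each WT library, with Elf5, Hand1 and Krt7 at 0. The 7 markers of the 2-cell-like state were at 0 in both Myh9 KO libraries and summed to 70 and 87 in WT; the part of these cells in the results below was not tested.

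The stretches just before the RefSeq start sites of these genes show what most of them share that the choice by name did not use. A binding core of GABP, another nuclear factor known for driving respiratory genes, was searched as CCGGAAG on either strand (CTTCCGG on the other), and a core of the NRF1 site as GCATGCGC (GCGCATGC on the other strand). These cores do not overlap each other in the windows searched, which ran from 250 bases before to 50 after each RefSeq start (GRCm38.p6), with 11 windows for the 10 genes. The GABP core stood before the RefSeq start site of 6 of the 10 genes. The sequences are printed for those 6, 5′ to 3′ on the gene's own strand up to the base before that start, with the cores in capitals:
Polrmt (chr10:79746582-79746731, minus strand): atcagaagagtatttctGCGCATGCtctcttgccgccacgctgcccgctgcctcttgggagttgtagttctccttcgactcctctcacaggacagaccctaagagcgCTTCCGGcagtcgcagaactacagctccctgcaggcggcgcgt
Tfam (chr10:71238045-71238104, minus strand): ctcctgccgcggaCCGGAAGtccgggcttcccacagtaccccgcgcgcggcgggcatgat
Tefm (chr11:80142154-80142213, minus strand): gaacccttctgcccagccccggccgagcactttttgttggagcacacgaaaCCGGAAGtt
Polg (chr7:79466274-79466333, minus strand): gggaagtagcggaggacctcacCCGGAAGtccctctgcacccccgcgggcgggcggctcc
Polg2 (chr11:106779538-106779597, minus strand): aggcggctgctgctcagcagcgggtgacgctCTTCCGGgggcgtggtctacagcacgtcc
Ssbp1 (chr6:40471408-40471467, plus strand): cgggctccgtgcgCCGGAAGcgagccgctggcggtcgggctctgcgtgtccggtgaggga

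In these 6 genes the first base of the GABP core lay between 47 and 9 bases before the RefSeq start. By the gene coordinates given below, Tfam, Tefm, Polg and Ssbp1 begin further upstream, and their cores lie within the gene. The same core was found in 8.86% of the 32817 promoter windows of that length and in 18.3% of the 10701 windows of genes that passed the filter on low values. The NRF1 core was found in 2 of the 10 genes, in Polrmt 133 bases before the start (the first capitals in its sequence above) and in Tfb2m just after the start, against 2.71% of all windows and 5.49% of those of genes that passed the filter. Neither core was found in the windows of Tfb1m, Lrpprc and Nrf1. A match describes the letters and is not a measured site.

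Of the 10 factors, Nrf1 rose in Myh9 KO cells and none fell. A gene is written as risen or fallen where it passed an adjusted p of 0.05 in 2 tests, limma on log2(value + 1) and the same test with random decimals added to each whole number, both adjusted over all 11231 genes tested. By both tests 5.13% of all tested genes rose and 5.81% fell, so 1 of 10 is close to the background share. In these bulk libraries fewer cells with an RNA and less of it per cell cannot be told apart. By limma alone the shares were 7.17% higher and 7.96% lower, again against 1 and 0 of the 10. With random decimals alone 2 of the 10 factors, Nrf1 and Ssbp1, were called higher and 0 lower, against 11.0% and 12.0% of all genes. The median log2 fold change was 0.05 over the 10 factors and 0.00 over all tested genes. In 3 of the 10 the Myh9 KO values lay above the WT values without overlap and in 1 below, while 26.2% and 27.3% of all tested genes did so.

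**Figure D1:**
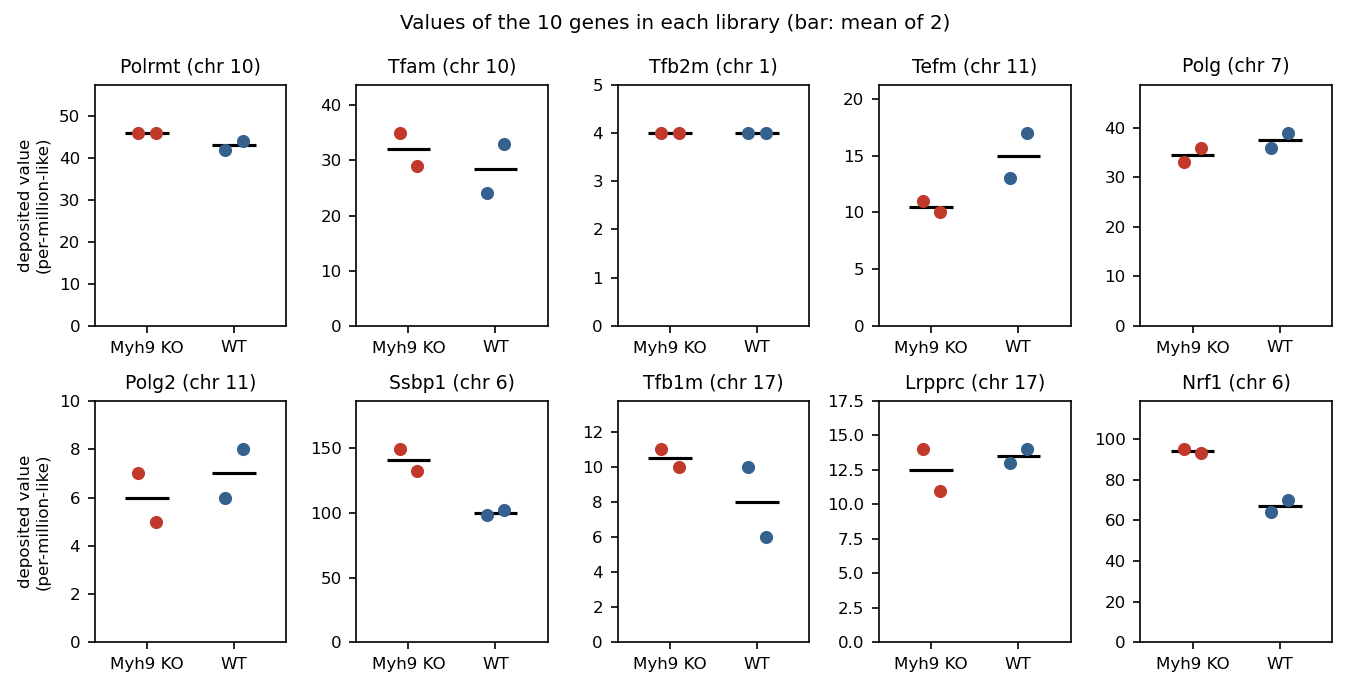
Deposited value of each of the 10 genes (y axis, from 0) in the 2 Myh9 KO libraries (red) and the 2 WT libraries (blue), with the mean of each pair as a bar. Nrf1 lies at 95 and 93 in Myh9 KO and 64 and 70 in WT, and Ssbp1 at 149 and 132 against 98 and 102, while in most other panels the groups overlap or lie close.

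The transcription machinery gave no call. Polrmt (ENSMUSG00000020329, mm10 chromosome 10, 79736123 to 79746581) had values of 46 and 46 in Myh9 KO and 42 and 44 in WT. The KO values stood above both WT values by a small step (limma adjusted p = 0.178, log2 fold change 0.10, SE 0.03) and a fold between 0.99 and 1.15 (95% confidence interval, as for all fold intervals below). Tfam (ENSMUSG00000003923, chromosome 10, 71225464 to 71238280) had values of 35 and 29 in Myh9 KO and 24 and 33 in WT. These groups overlapped, and the step between the WT libraries, 0.44 on the log2 scale, was larger than the fitted change of 0.17 (SE 0.23, limma adjusted p = 0.643, fold interval 0.653 to 1.95).

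Tfb2m (ENSMUSG00000026492, chromosome 1, 179528055 to 179546267) had a value of 4 in all 4 libraries. At so low a whole number a change smaller than a whole unit cannot be seen, and its fitted log2 fold change was 0.00 (limma adjusted p = 1). Of the 50-base words of its transcripts 31.9% also occur in another gene, the predicted gene Gm1818, so this value is uncertain. Tefm (ENSMUSG00000046909, chromosome 11, 80136678 to 80142175) had values of 11 and 10 in Myh9 KO and 13 and 17 in WT, the only one of the 10 with both KO values below both WT values. Its log2 fold change of -0.47 (SE 0.17) passed neither test (limma adjusted p = 0.198, and 0.0631 with random decimals), with a fold interval of 0.481 to 1.09. It passed with random decimals when WT 1 was left out (adjusted p = 0.0486). With the trend on GC content and length removed its log2 fold change was -0.09.

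Neither subunit of the replication polymerase was called. Polg (ENSMUSG00000039176, chromosome 7, 79446231 to 79466362), which codes for the catalytic subunit, had values of 33 and 36 in Myh9 KO and 36 and 39 in WT, sharing the value 36 (log2 fold change -0.12, SE 0.07, limma adjusted p = 0.398, fold interval 0.771 to 1.1). Polg overlaps Fanci on the opposite strand, which shares 6.42% of its 50-base words, and the library protocol describes no step that marks strand. Polg2 (ENSMUSG00000020718, chromosome 11, 106768253 to 106779537), the accessory subunit, had low and overlapping values of 7 and 5 in Myh9 KO and 6 and 8 in WT (log2 fold change -0.20, SE 0.24, limma adjusted p = 0.622, fold interval 0.487 to 1.57).

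Ssbp1 (ENSMUSG00000029911, chromosome 6, 40471352 to 40484700), the single-strand binding protein, had values of 149 and 132 in Myh9 KO and 98 and 102 in WT. Every KO value exceeded every WT value, with a log2 fold change of 0.48 (SE 0.08, fold 1.4, interval 1.15 to 1.7). It missed the limma threshold (adjusted p = 0.0705) and passed with random decimals (adjusted p = 0.00224), so it is given by its values.

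Tfb1m (ENSMUSG00000036983, chromosome 17, 3519263 to 3557713), the ribosomal RNA methylase, had values of 11 and 10 in Myh9 KO and 10 and 6 in WT. Its WT libraries differed from each other by more than the groups did, with a fold interval of 0.648 to 2.64 around a fold of 1.31 (log2 fold change 0.39, SE 0.29, limma adjusted p = 0.46). Lrpprc (ENSMUSG00000024120, chromosome 17, 84705247 to 84790789) had values of 14 and 11 in Myh9 KO and 13 and 14 in WT, which overlapped (log2 fold change -0.11, SE 0.15, limma adjusted p = 0.652, fold interval 0.646 to 1.33). Slirp, whose product binds LRPPRC, had values of 40 and 36 in Myh9 KO and 37 and 34 in WT, a log2 fold change of 0.09.

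Nrf1 (ENSMUSG00000058440, chromosome 6, 30047988 to 30153458) rose, with values of 95 and 93 in Myh9 KO and 64 and 70 in WT. Its groups did not overlap, and the fold was 1.4 (interval 1.21 to 1.61, log2 fold change 0.48, SE 0.06). Its adjusted p was 0.0447 by limma and 0.00195 with random decimals. None of its 50-base words occurs in another gene, and 1.64% of those of Ssbp1 do. The limma call rested on all 4 libraries, since leaving out any of them gave adjusted p-values of 0.0586 to 0.207 with log2 fold changes of 0.42 to 0.55. With random decimals every such fit kept an adjusted p of 0.0176 or lower. The RNAs of Tfam and of both TFB genes, known NRF1 targets in human cells, were called by neither test in these libraries. The intervals of Tfam and Tfb1m allow changes as large as that of Nrf1. Tfb2m had a value of 4 in all 4 libraries, and equal replicates leave no spread, so its narrow interval does not bound its change.

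Nrf1 and Ssbp1 are the pair among the 10 that lie on chromosome 6, and most tested genes of that chromosome had higher values in Myh9 KO. Of 555 tested genes of chromosome 6, 468 (84.3%) had a positive log2 fold change, the median was 0.45 (a fold of 1.36), and 30.5% rose by both tests, compared with 5.13% of all tested genes. The chromosomes that carry the other 8 factors (1, 7, 10, 11 and 17) had medians between -0.08 and 0.00. Nrf1 stood near the middle of its chromosome, with 251 genes of chromosome 6 at a larger log2 fold change and 303 at a smaller. Ssbp1 had 250 above it and 304 below. With the median of each gene's own chromosome subtracted, the log2 fold change was 0.04 for Nrf1 (limma adjusted p = 0.622) and 0.04 for Ssbp1 (limma adjusted p = 0.681). Only RNA was measured here, and the number of copies of chromosome 6 was not.

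**Figure D2:**
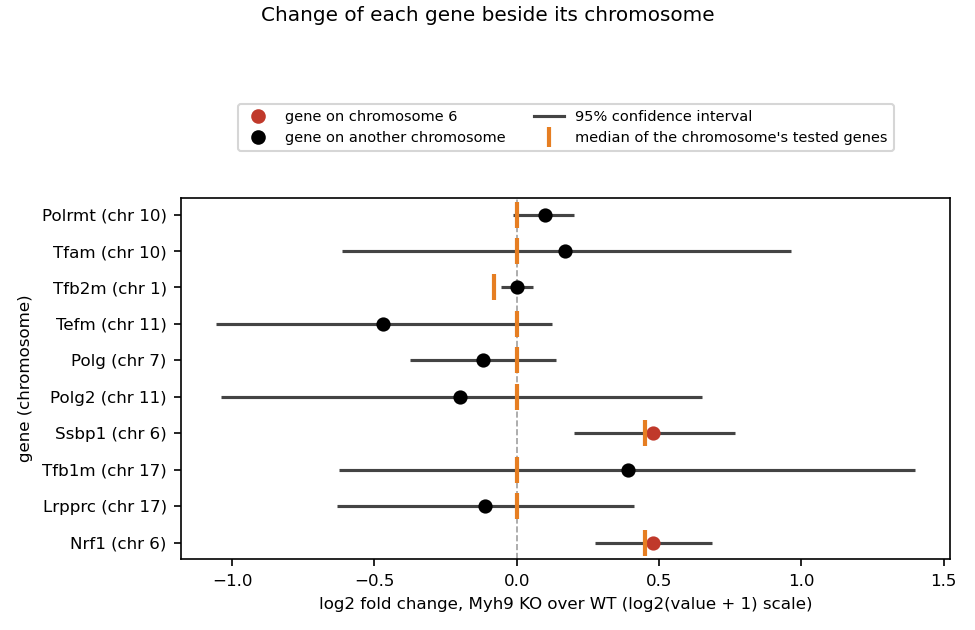
Log2 fold change of Myh9 KO over WT (x axis) of each of the 10 genes with its 95% confidence interval, and, as an orange tick, the median log2 fold change of all tested genes of its chromosome. The chromosome 6 genes Nrf1 and Ssbp1 (red) both sit at 0.48, beside a chromosome median of 0.45, and 8 genes on other chromosomes (black) have ticks between -0.08 and 0.00.

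Most neighbours of the pair had positive changes as well. Within 2 Mb of the start of Nrf1, 26 of the other 29 tested genes had a positive log2 fold change, with a median of 0.54, and by both tests 10 rose and 0 fell. Around Ssbp1, 17 of 20 were positive with a median of 0.49, 6 rose and 0 fell. The genes most like Nrf1 over the 4 libraries were also on chromosome 6, which holds 5.01% of the 4613 genes compared. By the distance between mean-centred log2 values, where 0 means the same profile, these were Nup205 (distance 0.0195, values of 51 and 49 in Myh9 KO and 34 and 37 in WT), Strap (0.0358, 108 and 103 against 73 and 78) and Immt (0.044, 117 and 118 against 81 and 90). Nup205 codes for a nuclear pore protein and Immt for a protein that shapes mitochondrial cristae. A likeness over 4 libraries in 2 groups is mostly the size of the group difference.

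**Figure D3:**
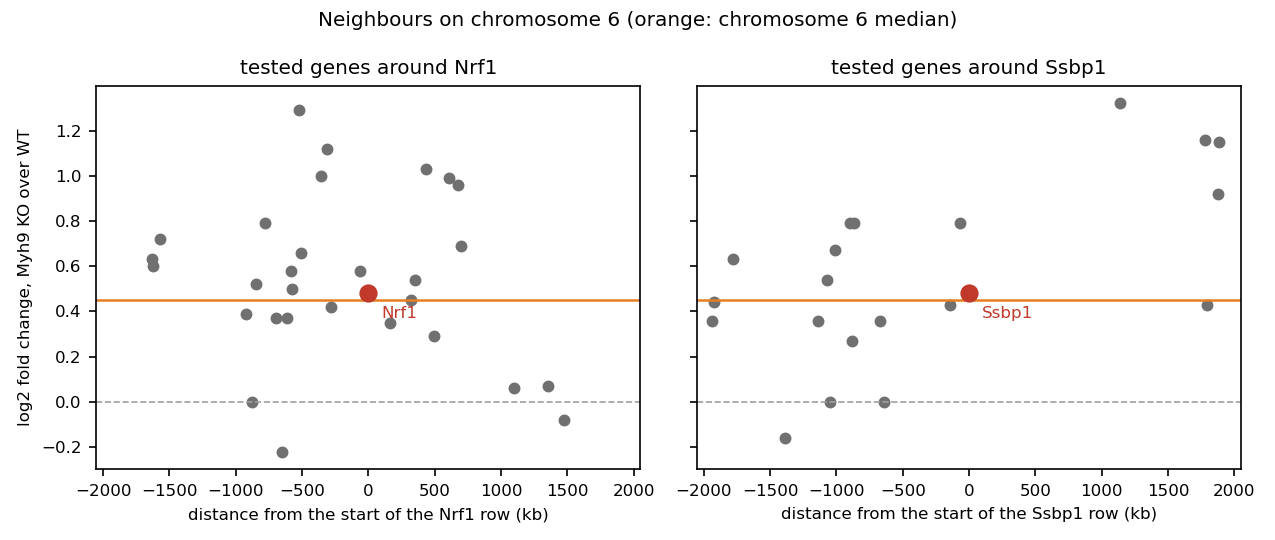
Log2 fold change of Myh9 KO over WT (y axis) of each tested gene within 2 Mb of Nrf1 (left) and Ssbp1 (right), by distance from the start of the gene in kb (x axis), with the chromosome 6 median of 0.45 as an orange line. Most points lie above 0 on both sides, 26 of 29 around Nrf1 and 17 of 20 around Ssbp1.

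Summed over the 2 chromosome 6 factors, values were 244 and 225 in Myh9 KO and 162 and 172 in WT, a ratio of means of 1.4. Over the other 8 factors the sums were 161 and 151 in Myh9 KO and 148 and 165 in WT, a ratio of 0.997. Of all tested genes, chromosome 6 included, limma called 7.17% higher and 7.96% lower, and random decimals 11.0% and 12.0%. The 8 factors off chromosome 6 had a median log2 fold change of -0.06. Limma with adjustment over all genes called 0 of them, also 0 at an unadjusted p under 0.05, and 0 with random decimals. That does not show that they stayed the same: the 95% fold intervals reached down to 0.481 for Tefm and up to 2.64 for Tfb1m.

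The wider set of genes that maintain and express mitochondrial DNA, in 7 lists of nuclear genes beside the 10 factors, had few calls. Of 75 list genes 71 were tested, 2 rose and 0 fell by both tests, compared with 5.13% and 5.81% of all tested genes. With random decimals alone 4 were higher and 7 lower, compared with 11.0% and 12.0% of all tested genes, and the list genes' median log2 fold change was 0.00, as over all genes. An unadjusted limma p under 0.05 was found for 19 of the 71. The share of all tested genes under that value is not given here. Dguok, a kinase that salvages deoxyguanosine for mitochondrial DNA, rose with values of 45 and 45 in Myh9 KO and 36 and 34 in WT (log2 fold change 0.35, SE 0.04, limma adjusted p = 0.0371). Phb2, a prohibitin found with nucleoids, rose with values of 1056 and 1113 in Myh9 KO and 725 and 724 in WT (log2 fold change 0.58, SE 0.03, limma adjusted p = 0.0153). Both lie on chromosome 6, and 0% of the 50-base words of Dguok and 4.15% of those of Phb2 occur in other genes. Of the 81 tested factors and list genes together 4 lie on chromosome 6 (Nrf1, Ssbp1, Dguok and Phb2), all 4 had KO values above WT values, and 3 of them rose. Of the 74 on chromosomes other than 6 and 8, 0 rose and 0 fell by both tests, 19 had KO values above WT values, and the median was 0.00. Of all tested genes, chromosomes 6 and 8 included, 5.13% rose, 5.81% fell and 26.2% had KO values above WT values. The share that rose was 30.5% on chromosome 6 and 12.5% on chromosome 8. On the other autosomes and X it was between 1.68% and 4.79%. The 3 of the 81 on chromosome 8, whose 646 tested genes had a median of 0.21, were not called either.

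By list, none of the 11 tested genes for replication and maintenance was called, with 2 at an unadjusted limma p under 0.05. Twnk, the replicative helicase that works with POLG and SSBP1, had values of 23 and 24 in Myh9 KO and 20 and 21 in WT (limma adjusted p = 0.11, log2 fold change 0.19, SE 0.04). Mgme1, an exonuclease of mitochondrial DNA, had 16 and 16 in Myh9 KO and 15 and 15 in WT. None of the 19 genes for RNA processing and decay was called by limma, with 3 at an unadjusted p under 0.05. Only Fastk (66 and 75 in Myh9 KO, 88 and 83 in WT) was lower with random decimals (adjusted p = 0.0392, limma adjusted p = 0.174). Of all tested genes 12.0% were lower with random decimals. The smallest p there was that of Fastkd3 (16 and 17 in Myh9 KO, 20 and 20 in WT, limma adjusted p = 0.0628). None of the 11 genes for ribosomal RNA modification and ribosome assembly was called, nor with random decimals (2 at an unadjusted limma p under 0.05). Eral1, a GTPase that binds the small subunit's RNA, had values of 36 and 36 in Myh9 KO and 33 and 32 in WT. Of 4 further transcription genes 2 were tested and 0 called by either test (0 at an unadjusted p under 0.05). Mterf1a, related to a transcription terminator, had values of 1 and 0 in Myh9 KO and 2 and 3 in WT.

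Among 10 tested nuclear regulators beside Nrf1, 0 passed both tests, and 5 had an unadjusted limma p under 0.05. With random decimals 1 was higher and 2 were lower, against 11.0% and 12.0% of all tested genes. Limma alone called Ppargc1b, a coactivator of mitochondrial genes, on values of 2 and 2 in Myh9 KO and 1 and 1 in WT, whose equal replicates leave no spread, and it did not pass with random decimals (adjusted p = 0.232). Ppargc1a was listed at 0 in every library. Gabpa, the DNA-binding subunit of GABP, had values of 12 and 11 in Myh9 KO and 11 and 12 in WT. Its partner Gabpb1 had 17 and 14 in Myh9 KO and 22 and 22 in WT and passed with random decimals only (adjusted p = 0.0238, limma adjusted p = 0.118). Myc, a transcription factor of growth, had 36 and 41 in Myh9 KO and 26 and 26 in WT, again with random decimals only (adjusted p = 0.00509, limma adjusted p = 0.0602). Sirt1, a deacetylase that acts on the coactivator PGC-1α, had 6 and 5 in Myh9 KO and 10 and 9 in WT and was also called lower with random decimals only (adjusted p = 0.0219, limma adjusted p = 0.0707).

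Of 10 tested genes of nucleotide supply only Dguok passed both tests, and 6 had an unadjusted limma p under 0.05. With random decimals 2 were higher and 2 lower, against 11.0% and 12.0% of all tested genes. Beside Dguok these were Rrm2, a ribonucleotide reductase subunit (284 and 297 in Myh9 KO, 250 and 257 in WT, adjusted p = 0.025), Tyms, which makes thymidylate (111 and 101 in Myh9 KO, 139 and 127 in WT, adjusted p = 0.0145), and Dut, which removes dUTP (325 and 310 in Myh9 KO, 397 and 377 in WT, adjusted p = 0.00551). Of 8 nucleoid-associated genes only Phb2 passed both tests, and 1 of the 8 had an unadjusted limma p under 0.05. With random decimals Phb2 was higher and 2 chaperone genes were lower, against 11.0% and 12.0% of all tested genes. Hspa9 had values of 177 and 160 in Myh9 KO and 195 and 208 in WT (adjusted p = 0.0245, limma adjusted p = 0.156). Hspd1 had 298 and 258 in Myh9 KO and 328 and 345 in WT (adjusted p = 0.0245, limma adjusted p = 0.187).

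**Figure D4:**
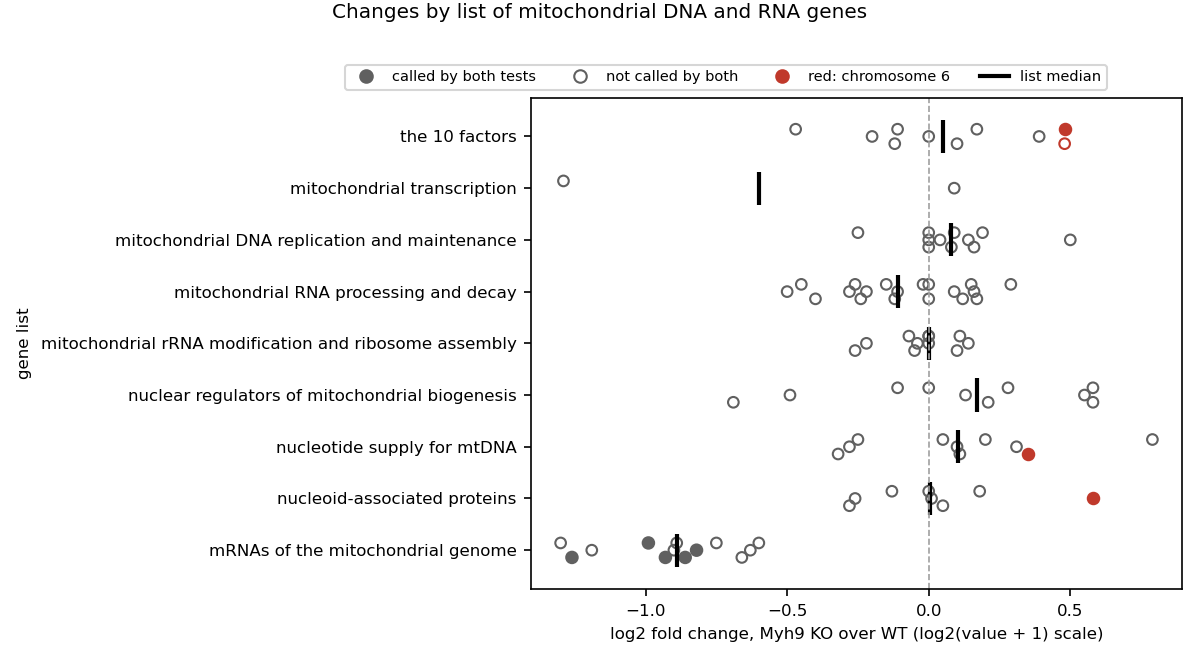
Log2 fold change of Myh9 KO over WT (x axis) of every tested gene of the 10 factors and of 8 lists (y axis), filled where both tests called the gene, red for chromosome 6, with the list median as a black bar. The filled points of nuclear genes are Nrf1, Dguok and Phb2, all red, and the 13 mitochondrial mRNAs lie between -1.30 and -0.60.

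The mRNAs made from mitochondrial DNA itself were lower as a list. Of 13, 5 fell by both tests and 13 were lower with random decimals, each with both KO values below both WT values, and their median log2 fold change was -0.89. Of all tested genes 5.81% fell by both tests, 12.0% were lower with random decimals and 27.3% had KO values below WT values. By limma alone 5 were called lower, 12 with library medians centred, 1 without either WT library, 2 without either Myh9 KO library and 0 with the replicate block, while with random decimals 12 or 13 were called whichever library was left out. They summed to 6927 and 6021 in Myh9 KO and 11625 and 11908 in WT, a ratio of means of 0.55, beside the ratio of 0.997 for the 8 factors off chromosome 6. Examples are mt-Co1, a cytochrome oxidase subunit (2195 and 2022 in Myh9 KO, 4193 and 4178 in WT, limma adjusted p = 0.0129), and mt-Nd2, a complex I subunit (73 and 71 in Myh9 KO, 190 and 159 in WT, limma adjusted p = 0.0285), and mt-Nd4, mt-Nd4l and mt-Nd6 fell too. Other annotated genes hold 51.1% of the 50-base words found in mt-Co1 and 8.19% of those in mt-Nd2, so the values of mt-Co1 are uncertain. The other mRNAs of the list were not checked for such words. Mt-Co1 has the largest values in the sums above, which are corrected neither for shared words nor for GC content. These mRNAs have low GC content, and the fifth of tested genes lowest in GC (31% to 45%) had a median log2 fold change of -0.15 between the groups and of -0.14 between Myh9 KO 2 and Myh9 KO 1, against 0.11 and 0.09 in the fifth highest in GC. After removal of the GC and length trend the median of the 13 mRNAs was -0.31, 12 were negative and limma called 5 lower. Tfam, Tfb2m, Tefm, Ssbp1 and Tfb1m are in the same low GC class. The part of GC content in the values of single factors was not tested beyond the alternative fit.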

How the data were processed

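RNA-seq values of 4 libraries were analysed. The authors' deposited values are handled as a score, being whole numbers of nearly equal sums; no source used here says how decimals were dropped. Per the submitters' processing notes, which give no roles, the tools were bcl2fastq, RSEM 1.3.0 and Bowtie2 2.2.5 and the builds mm10 and hg38. Of 50600 identifiers 50376 were found in GENCODE vM21 (GRCm38), 92.91% of them with the same coordinates. limma 3.58.1 (R 4.3.3) was fitted with a mean-variance trend to log2(value + 1) for genes with a mean of at least 1, comparing Myh9 KO with WT without blocking on the replicate number, and p-values were adjusted by Benjamini-Hochberg over all genes. Fold changes on this scale understate the change of low genes. Because equal whole numbers leave no spread, the fit was repeated with a uniform number between 0 and 1 added to each value, taking medians over 25 draws. The scripts were tested on simulated data.

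Members and lists were chosen with earlier results of these data known. Named genes were the 10 factors, Myh9, and from each list up to 4 genes called by both tests with the smallest p, or 1 where none was called, and the 3 genes most like a called factor (mean of at least 20). Twnk, Slirp, Gabpa, Ppargc1a, mt-Nd4l, the genes that passed with random decimals only (Gabpb1, Myc, Sirt1, Fastk, Rrm2, Tyms, Dut, Hspa9 and Hspd1) and the order of the figures' lists were chosen after their values were seen. Prorp was matched through its older name. Promoter sequences are from RefSeq (GRCm38.p6), and all 10 genes matched. Alternatives changed the pseudocount, filter, scaling, block, variance model, GC and chromosome terms and left out each library.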

Additional observations from a re-analysis of the deposited data

How the results depend on the processing

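Of the 10 factors 1 was called higher by limma and 0 lower. The number higher was 2 with a mean value of at least 5, with random decimals, with library medians centred and after removal of the GC and length trend. It was 0 with the replicate block, with robust hyperparameters and with the chromosome median subtracted; the last removes the shift shared by chromosome 6, and the cause of the others was not tested. Leaving out each library gave 0 to 2 higher and 0 to 1 lower. Of 20 alternatives, 4 of them (libraries left out with random decimals) chosen after seeing the data, Nrf1 passed in 13 and Ssbp1 in 8, always positive (0.04 to 0.57 and 0.04 to 0.64). Signs turned for Polrmt (-0.05 without the GC and length trend) and, with libraries left out, for Tfam (-0.05 to 0.39), Polg2 (-0.40 to 0.01, and 0.02 and 0.03 with random decimals) and Lrpprc (-0.27 to 0.05), none of them called. Myh9 stayed at -3.20 with the replicate block (limma adjusted p = 0.0723) and at -3.34 to -3.07 without single libraries; its limma p missed the threshold without either Myh9 KO library.

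Over the tested genes, the deviations of WT 1 and Myh9 KO 1 from their group means had a correlation of 0.0407. With 2 libraries per group the other pair repeats this value. The labels do not say whether same-numbered libraries were made together, and this correlation cannot settle it. With the replicate block limma called 10 genes higher and 44 lower, against 805 and 894 without it. Random decimals gave 1239 and 1349, and removing the GC and length trend 1436 and 1256. With library medians centred 58.7% of calls were higher, against 47.4%. Of 320 list counts under alternatives 258 stayed within 1.5 times, but most of these lists had a count of 0 in the main fit, so this says little about stability. The mitochondrial mRNAs called lower, 5 in the main fit, were 0 with the replicate block and 13 with random decimals. Depth is unknown, and whole numbers limit Tfb2m and Polg2.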
